A study of Mus musculus with 16 samples.

Results

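The window examined here covers 5 Mb of mouse chromosome 15, from 59000000 to 64000000 on the build mm8, and is labelled after Myc. Its members are the 332 array probes placed there, out of 233212 probes with a position on the autosomes, X or Y. The first probe starts at 59007230 and the last ends at 63998005, with a median spacing of 12342 bp against 7827 bp over all autosomes and a largest step of 61887 bp. The window was chosen because the lines LL2 and 4T1 had high segments in it, so the heights of these gains are descriptions without a test.

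Genomic DNA from cultured syngeneic tumour lines, which can be grown in mice of their own strain, was measured on 16 arrays, with a single culture and array for each line. Each array carried DNA of the line in red (Cy5) and a commercial mouse genomic DNA from Merck in green (Cy3). The labels give Balb/C as the background of CT26 (colon), 4T1 (breast) and Renca (renal), and DBA/2 as that of P815 (mast cells). The other 12 lines are labelled C57BI6: MC38 (colorectal), LL2 (lung), B16F0 ECAC, B16F0 ATCC, B16F10 NCI and B16F10 ATCC (melanoma), Hepa1-6 (liver), PAN02 (pancreas), TRAMPC1 and TRAMPC2 (prostate), EL4 (blood) and ID8 (ovary). TRAMPC1 and TRAMPC2 are labelled male and all others female. Since 4 arrays are B16 stocks and 2 are TRAMPC lines, the arrays form 12 families. No line had a replicate, and the strain of the reference DNA was not given in the sources used here.

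Myc encodes a transcription factor that drives growth and division, and its locus is among those most often amplified in tumours. It lies beside Pvt1, a long noncoding RNA gene that is often amplified with it. A focal amplicon raises the ratio over a short stretch with sharp borders, whereas gain of a whole chromosome raises every probe of it together, so a window is best read against the rest of its own chromosome. Ratios are relative to the autosomal median of each array, and an even gain in all cells and a higher gain in some of them cannot be told apart.

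The arrays name probes by position only, and no gene map on mm8 was used here. In the RefSeq gene table of GRCm38.p6, read only for order, Myc is preceded by Washc5, Nsmce2, Trib1, 4933412E24Rik, Lratd2 and A1bg. It is followed by Pvt1, the gasdermin genes Gsdmc, Gsdmc2, Gsdmc3 and Gsdmc4, then Cyrib, Asap1 and Adcy8. Which of these genes lies inside which segment was not tested, and the segments are named by their line and position.

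LL2, the lung line, had the highest gain of the window. A core segment at chr15:61440614-62200089 (759 kb) stood at a mean log2 ratio of 4.00 ± 0.056 (SE over 65 probes), a 15.98-fold ratio of line to reference. Its single probes ran from 3.16 to 5.24. A shoulder followed at chr15:62208606-62539934 (331 kb), at 2.72 ± 0.066 (SE over 28 probes), with probes from 1.62 to 3.54, a 6.57-fold ratio. The core therefore lay 1.28 above the shoulder in log2, or 2.43-fold. Every probe of both segments was above the rest of chromosome 15 in LL2, whose median was 0.23.

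The gain in LL2 was focal by every border measured. The segment before it, from 3091692 to 61430113, stood at 0.21, and the segment after it, from 62552062 to 103482674, stood at 0.29. The outer borders were resolved to 10.5 kb at the start and 12.1 kb at the end, and the step from core to shoulder to 8.52 kb. At the end of the shoulder the ratio fell from 2.66 at its last probe to -0.07 at the next. At the start the change was less abrupt: the probes at 61414935 and 61430054, just before the core, read 2.08 and 1.90. With the segmentation penalty halved these probes joined the first 5 of the core in a step of its own, chr15:61414935-61477976 at 3.01, and the core then began at 61485077.

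Beyond the shoulder LL2 showed a small separate gain of 3 neighbouring probes at chr15:62652394-62682637 (30.2 kb). These probes read 2.11, 2.38 and 2.24, with a mean of 2.24 ± 0.13 (SD over 3 probes), a 4.73-fold ratio. The gain was picked out after its values were seen, and it is too short for the 5-probe minimum of a segment. It began 112 kb after the shoulder, and the 6 probes in between read from -0.07 to 0.38. The next probe after it read -0.14. In the same 3 probes the other 15 arrays had means from -0.30 in Renca to 0.38 in 4T1.

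**Figure D1:**
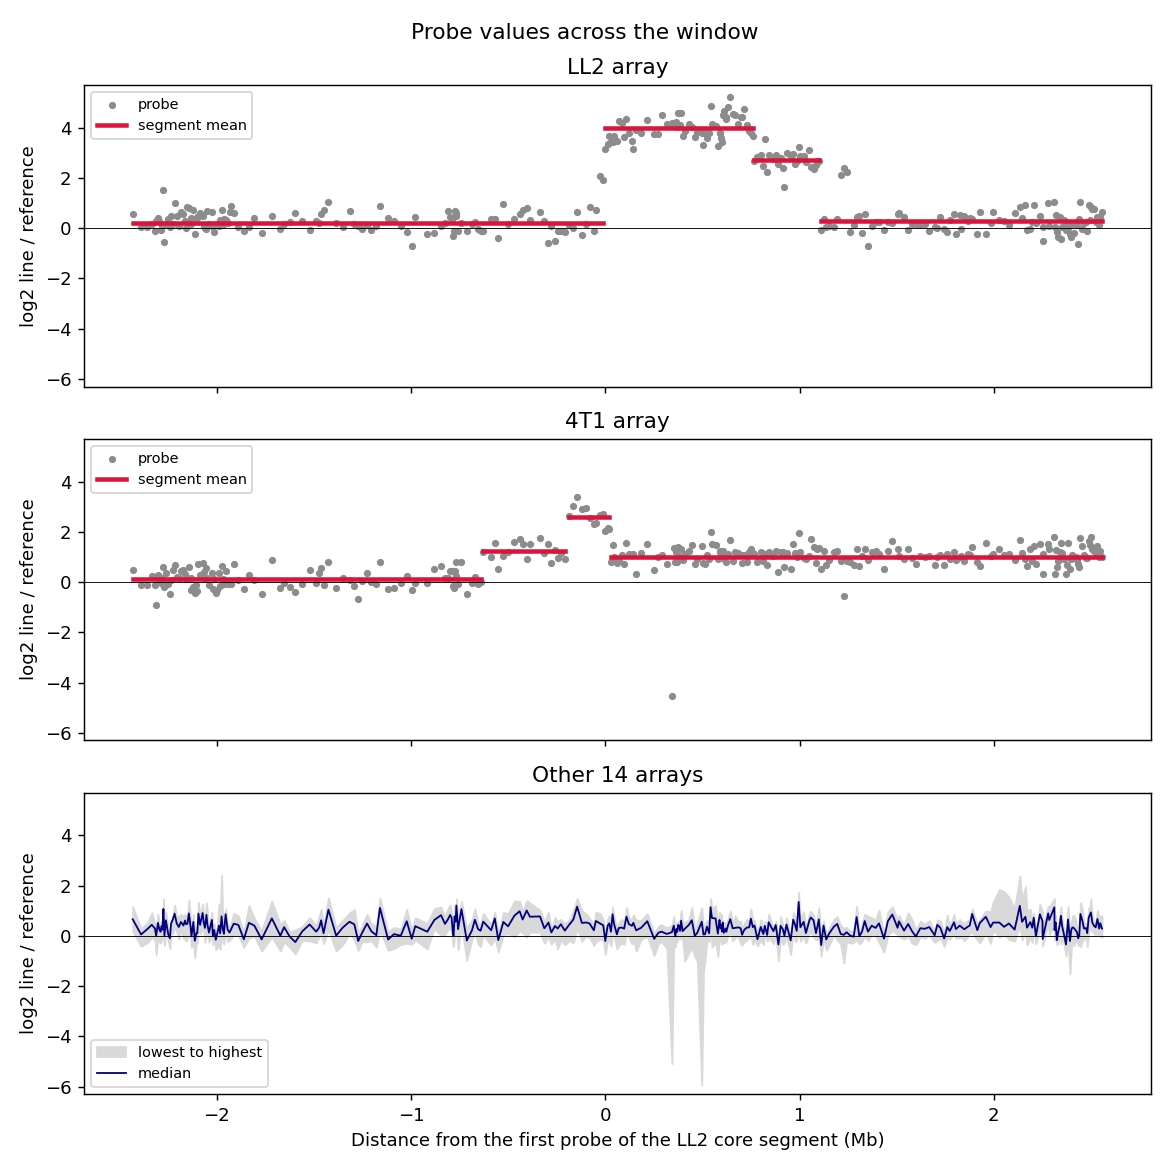
Log2 ratio of line to reference (vertical axis) for every probe of the window, against distance in Mb from the first probe of the LL2 core (horizontal axis); grey points are probes, red bars are segment means, and the bottom panel gives the lowest, median and highest of the other 14 arrays. The LL2 core at 4.00 begins where the 4T1 peak at 2.59 ends and is followed by the shoulder at 2.72, and a run of 3 LL2 probes near 2.24 stands apart on the right.

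4T1, the breast line, carried a different structure, a narrow peak on the edge of a broad gain. The window began at a level near the reference, with a segment from 58967392 to 60798275 at 0.12 (110 probes). The ratio then rose to 1.23 ± 0.079 (SE over 19 probes) at chr15:60812322-61232214, a 2.34-fold ratio. The peak, at chr15:61254105-61460967 (207 kb), stood at 2.59 ± 0.11 (SE over 13 probes), with probes from 2.03 to 3.39 and a 6.03-fold ratio. From 61469826 the ratio dropped to a mean of 0.99 ± 0.023 (SE over 613 probes) in a segment that ran to 69216077, beyond the end of the window. The probes of this segment had an SD of 0.57, against 0.36 in the part of the window after the LL2 gain.

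The stretch of 4T1 from its first step to 69216077 ran for 8.40 Mb and covered 63.8% of the window, which shows only its start. Beyond it lay segments at 0.34 to 72157280 and at 0.86 to 73372239, and then one at -0.30. By the limit of 0.3 for a gained segment, the gain therefore reached to 73372239. The peak was 1.61 above the broad gain that followed it, or 3.04-fold. Its borders were resolved to 21.9 kb at the start and 8.86 kb at the end, where single probes dropped from 2.10 to 0.82. Just before the window 4T1 had another high segment, chr15:58705070-58943103, at 1.73 (36 probes), and before that one at 1.08 (332 probes) from 54956956 to 58364258. The segments between these gains stood at 0.14 and 0.12. With the segmentation penalty doubled the first step and the peak of 4T1 merged into 1 segment of 32 probes at 1.78.

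The LL2 and 4T1 gains met over a short interval. The 4T1 peak and the LL2 core shared chr15:61440614-61460967, which is 20.4 kb and 3 probes. This is 9.84% of the 4T1 peak and 2.68% of the LL2 core. The extent depended on where the core was cut. LL2 was also raised at the probes just before it, at 2.08 and 1.90, inside the 4T1 peak. Under normexp background correction (described below) the core began at 61414935. With the segmentation penalty halved the core began at 61485077, past the peak. A separate LL2 step at chr15:61414935-61477976, at 3.01, then overlapped the peak instead. The 3 shared probes read 3.16, 3.36 and 3.68 in LL2 and 2.03, 2.13 and 2.10 in 4T1. In the 14 other arrays their mean ran from -0.32 in P815 to 0.40 in ID8, and over the 10 other families it was 0.12 ± 0.24 (SD, n = 10 families). Over the rest of its core LL2 was therefore high where 4T1 was at its broad level. All of the LL2 gain lay inside the 4T1 stretch, where 4T1 stood at a median of 1.09 over the core and a mean of 1.09 ± 0.065 (SE over 28 probes) over the shoulder.

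Medians of 250 kb bins show how LL2 and 4T1 differ along the window. From 61500000 to 62250000 the LL2 bins read 3.80, 4.08 and 4.11, and the 4T1 bins 1.07, 1.05 and 1.13. In the next bin LL2 was at 2.79 and 4T1 at 1.12. In the bin from 61250000 to 61500000, which holds the meeting point, 4T1 was the higher, at 2.45 against 1.37.

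**Figure D2:**
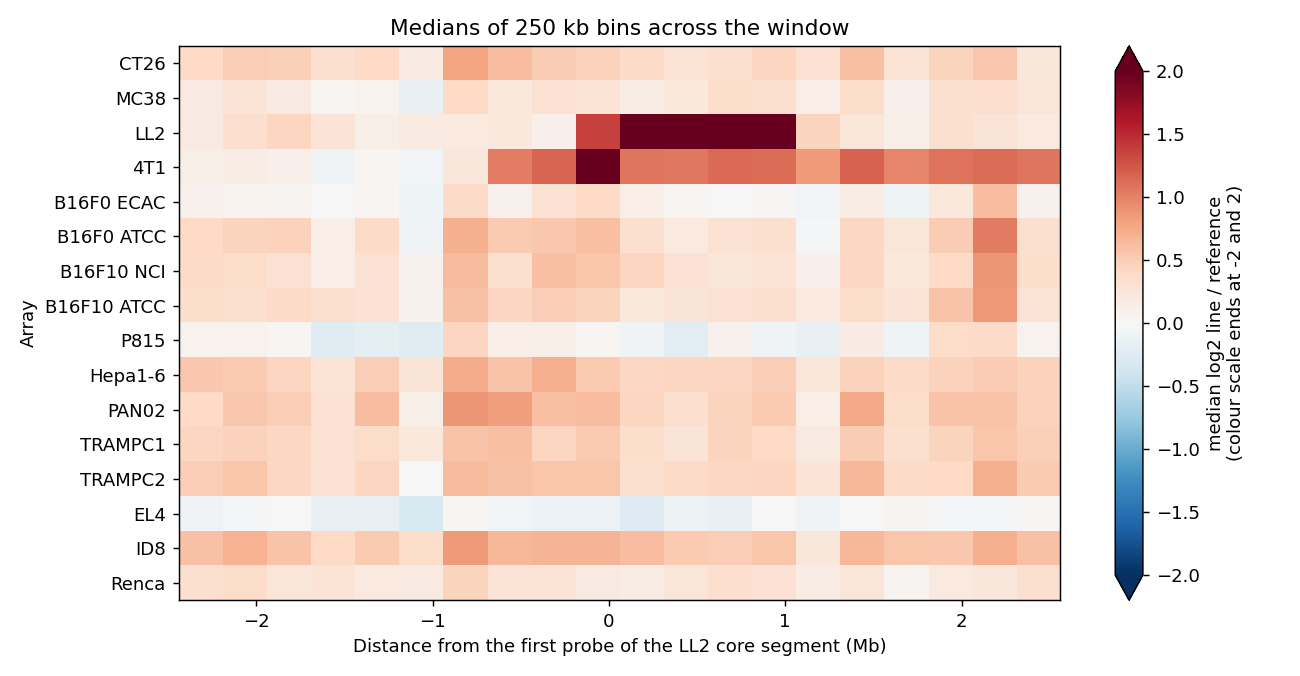
Median log2 ratio of line to reference (colour, with the scale ending at -2 and 2) in 250 kb bins of the window, against distance in Mb from the first probe of the LL2 core (horizontal axis) for each of the 16 arrays (vertical axis). LL2 is dark over the bins at 3.80 to 4.11 and pale on both sides, 4T1 is raised from its first step to the window's end, and the 4 B16 arrays share a darker bin on the right.

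The other lines were lower over these intervals. Over the LL2 core the other 14 arrays had means of -0.21 in P815 (lowest), 0.31 (median) and 0.56 in ID8 (highest), and their 10 families averaged 0.26 ± 0.25 (SD, n = 10 families). Over the shoulder the same arrays ran from -0.06 to 0.55, with a median of 0.33. Over the 4T1 peak they ran from -0.13 to 0.69 with a median of 0.49, and over the first step of 4T1 from -0.08 to 0.75 with a median of 0.53. In each of these 4 intervals ID8 was the highest of the 14, and its level over the rest of the chromosome was 0.64. LL2 itself was at 0.19 over the first step of 4T1.

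The excess lay in the line channel. Against the median of the other 14 arrays, and with each channel centred on its own autosomal median, the line channel of LL2 was higher by 3.64 ± 0.072 (SE over 65 probes) over the core in log2, and its reference channel differed by -0.04 ± 0.043. Over the shoulder the values were 2.30 ± 0.10 and -0.08 ± 0.093. For the 4T1 peak the line channel of 4T1 was higher by 2.17 ± 0.070 (SE over 13 probes), and its reference channel differed by 0.05 ± 0.047. The line channels of the other 14 arrays lay from -0.51 to 0.26 over the LL2 core and from -0.57 to 0.31 over the 4T1 peak. No window spot was saturated on any array, and the reference was well above background at all of them.

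**Figure D3:**
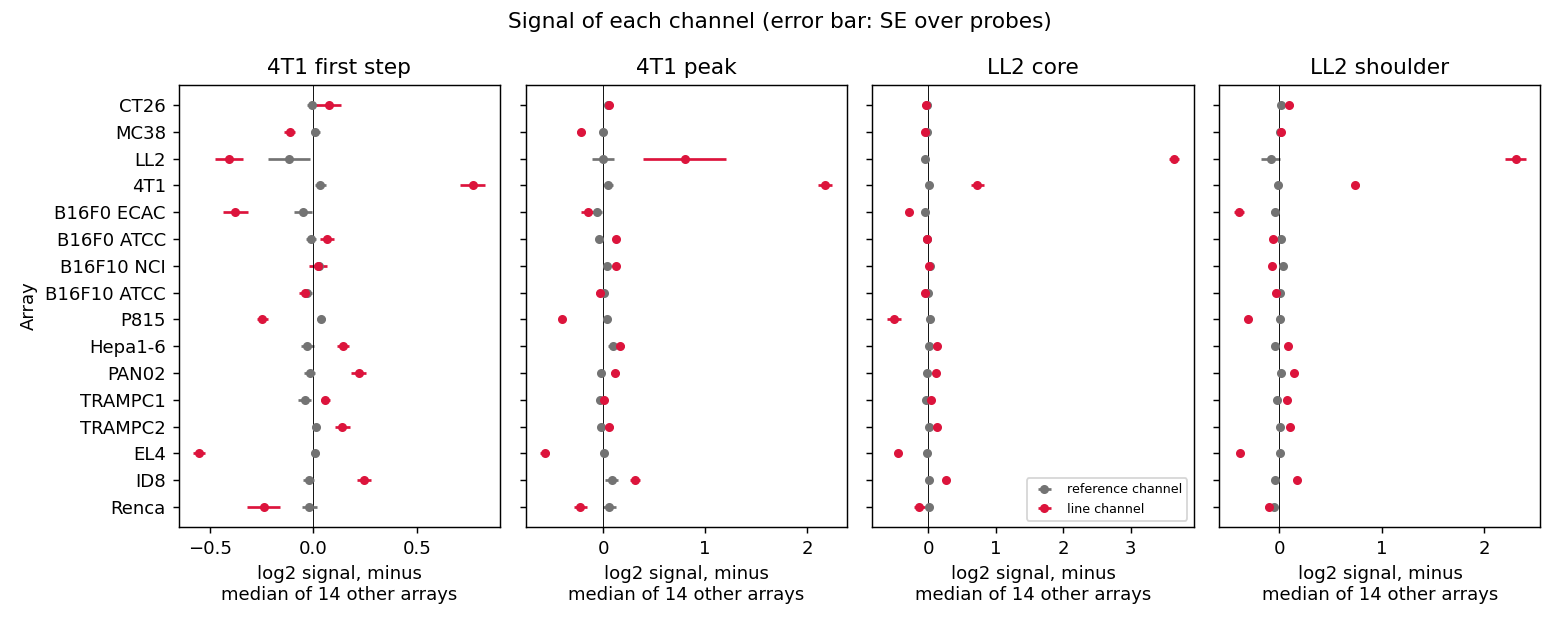
Log2 signal of the line (red) and the reference (grey) channel of each array (vertical axis), minus the median of 14 arrays that leaves out LL2 and 4T1 (horizontal axis), over the 4 gained intervals; points are means over probes and bars are SEs. Over the LL2 core the line channel of LL2 stands at 3.64 and that of 4T1 at 0.72, while all reference points lie close to 0.

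The comparison of the window with the rest of chromosome 15 in the same array asked whether the gain was focal. The window median was 0.3 or more in 11 of 16 lines, but it exceeded the median of the rest of the chromosome by 0.3 or more in 1 of 16, namely 4T1. Over all 5 Mb windows of the autosomes and all arrays, 2.55% exceeded the rest of their chromosome by that much, and 4.44% lay as far below it. No line lay 0.3 or more below. A focal gain, meaning a segment shorter than 5 Mb and at least 0.3 above the rest of the chromosome, was called in 3 lines, LL2, 4T1 and B16F0 ECAC, against 4.26% of all 5 Mb windows over all arrays. In LL2 and 4T1 it was at least 2 above the rest of the chromosome, as in 0.634% of all windows (1.71% for at least 1), and in B16F0 ECAC it was 0.95 above. The window was chosen on LL2 and 4T1, so nothing is read from these counts. In the other 13 lines the whole window lay within 1 segment.

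In 4T1 the window median was 0.90 and the rest of chromosome 15 was at 0.09, a difference of 0.81. Among 483 such windows on its array this difference ranked as number 5 from the top, and 19 of them were 0.3 or more above their chromosome. Against the 10 Mb on each side, much of which is gained in 4T1 as well, the difference was only 0.18. With the positions of the LL2 and 4T1 focal segments left out, it was 0.52. In LL2 the window median was 0.43 against 0.23, a difference of 0.20, because the gain filled only 22.0% of the window. As a mean over probes the LL2 difference was 0.96 and the 4T1 difference 0.67, and with the focal segments left out the LL2 difference was -0.02. In LL2 1.01% of the chromosome 15 probes lay in gained segments.

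The other 14 lines lay close to the level of their chromosome. Their window medians were -0.06 at the lowest, 0.37 at the median and 0.58 at the highest, and the rest of chromosome 15 was at -0.07, 0.29 and 0.64. The differences ran from -0.25 to 0.16 with a median of 0.08. ID8, the ovarian line, had the highest window median of these at 0.58, but its chromosome stood at 0.64, and 100% of its chromosome 15 probes lay in gained segments. PAN02 was at 0.49 against 0.38, TRAMPC2 at 0.47 against 0.42, Hepa1-6 at 0.46 against 0.35, TRAMPC1 at 0.43 against 0.37 and CT26 at 0.40 against 0.44. In these 5 lines 75.1% to 100% of the chromosome was in gained segments, so the window was part of a gain of most of the chromosome. MC38 was at 0.24 in the window and 0.22 outside it.

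The B16 arrays had lower levels, with B16F0 ATCC at 0.39 against 0.23, B16F10 NCI at 0.34 against 0.23, B16F10 ATCC at 0.34 against 0.20 and B16F0 ECAC at 0.08 against -0.04. Their differences were 0.11 to 0.16. Under normexp background correction they were 0.01 in B16F0 ECAC and 0.05 to 0.17 in the others, and with the median of each probe over families subtracted they were 0.02 to 0.08. In B16F0 ATCC 75.1% of the chromosome was in gained segments, as in TRAMPC1, against 39.4% in B16F10 NCI, 0% in B16F10 ATCC and 0.109% in B16F0 ECAC. The segment that holds the window was near the 0.3 limit, at 0.30 in B16F0 ATCC, 0.29 in B16F10 NCI and 0.28 in B16F10 ATCC. P815 was at 0.04 in the window and -0.07 outside it.

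EL4 and Renca were the lines in which the window was lowest against its chromosome. EL4 was at -0.06 against 0.20, a difference of -0.25. The window of EL4 lay inside a segment from 57559815 to 74544335 at -0.11, which was 0.30 below the rest of the chromosome, and the 10 Mb on each side were at -0.19. Renca was at 0.25 against 0.39, a difference of -0.15, inside a segment from 51097296 to 67763409 at 0.19. In both lines the lower level reached past both ends of the window, and against the 10 Mb on each side the difference turned to 0.13 in EL4 and 0.10 in Renca. When the shared effect of each probe, its median over families, was subtracted, the difference was -0.32 in EL4 and 0.87 in 4T1, and these were then the only lines past 0.3.

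**Figure D4:**
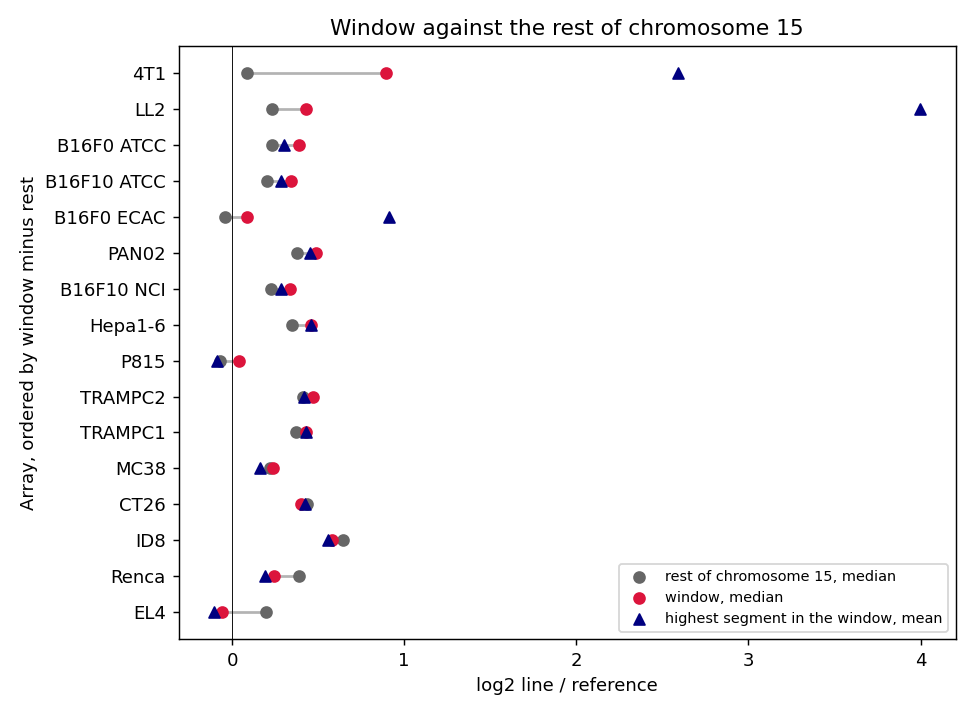
Log2 ratio of line to reference (horizontal axis) for each array (vertical axis, ordered by the difference): the median of the rest of chromosome 15 (grey), the median of the window (red) and the mean of the highest segment that overlaps the window (blue triangle). Only LL2, 4T1 and B16F0 ECAC have a segment far to the right of their chromosome, at 4.00, 2.59 and 0.91.

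Counts of high probes set LL2 and 4T1 apart in different ways. In LL2 103 window probes (31.0%) were at a log2 ratio of 1 or more, against 2.39% of all autosomal probes of that array, and 68 were at 3 or more. In 4T1 138 probes (41.6%) were at 1 or more, against 2.08%, but only 2 were at 3 or more. In the other 14 arrays the number at 1 or more ran from 0 in EL4 to 49 in ID8 with a median of 16.5. Together these were 249 of 4647 readings (5.36%), against 2.48% of the autosomal readings of the same arrays. In these 14 arrays a median of 61.1% of the chromosome 15 probes lay in gained segments. The share of high probes over the rest of chromosome 15 was not computed, so this excess is not read as a trait of the window.

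Another gain, low and short, was called at the far end of the window in B16F0 ECAC, a B16F0 melanoma stock. It spanned chr15:63437196-63629115 (192 kb) at 0.91 ± 0.097 (SE over 10 probes), with neighbouring segments at 0.08 and 0.03. Its borders were resolved to 12.9 kb and 9.58 kb. The following values at these 10 probes in other arrays were examined after that call was seen, and they carry no test. The mean was 1.28 in B16F0 ATCC, 1.28 in B16F10 NCI and 1.20 in B16F10 ATCC. Against the remaining probes after the LL2 gain, the excess was 0.85 in B16F0 ECAC, 0.93 in B16F0 ATCC, 0.96 in B16F10 NCI and 0.88 in B16F10 ATCC. On the processed signals all 4 B16 arrays were therefore raised here by a like amount.

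The probe noise was 0.23 in B16F0 ECAC and from 0.30 to 0.40 in the other B16 arrays, where no segment was called. With the penalty halved a gain at chr15:63469269-63629115 was called in both B16F10 arrays, at 1.35 in B16F10 NCI. P815, the mast cell line, was also high at the start of this interval. Its first 4 probes, chr15:63437196-63518100, read 1.34, 1.85, 1.76 and 1.55, which is 1.56 above the surroundings, and its other 6 probes were 0.33 above. In the B16 arrays the first 4 probes were 0.69 to 0.88 above their surroundings and the other 6 were 0.83 to 1.10 above. With the penalty halved a gain of 5 probes was called in P815 as well, at chr15:63424282-63518100, with a mean of 1.49. The gain in P815 thus started before that of B16F0 ECAC and ended sooner than that of the B16 arrays.

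In the other 11 arrays, which include the remaining C57BI6 families, the excess over these 10 probes was 0.02 at the lowest, 0.09 at the median and 0.20 at the highest. 4T1 had a level of 1.12 there, but its surroundings were at 1.03. Under normexp background correction, which subtracts a modelled background from the raw spot signal, the excess was 0.06 in B16F0 ECAC, 1.16 in B16F0 ATCC, 0.74 in B16F10 NCI, 0.38 in B16F10 ATCC and 0.23 in P815, against -0.17 to 0.11 in the other 11 arrays. The gain of B16F0 ECAC was then no longer called and lay within the range of those arrays.

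**Figure D5:**
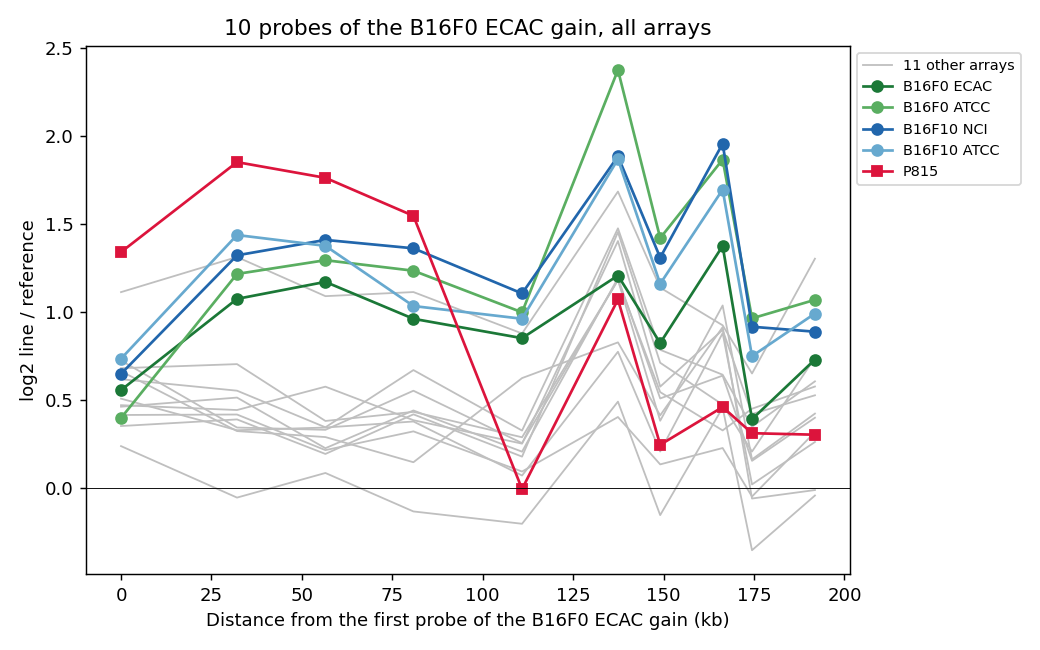
Log2 ratio of line to reference (vertical axis) at the 10 probes of the B16F0 ECAC gain, against distance in kb from the first of them (horizontal axis), with B16 arrays in green and blue, P815 in red and the other 11 arrays in grey. P815 reaches 1.85 over the first 4 probes and then falls back, while the B16 arrays stay raised to the last probe.

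A wider search took runs of at least 3 neighbouring probes that were each 1 or more above the rest of the chromosome. Such a run was present in the window in 6 of 16 lines, against 5.98% of all 5 Mb windows over all arrays. These were LL2, 4T1, P815, B16F0 ECAC, B16F0 ATCC and B16F10 NCI. The window was chosen on LL2 and 4T1, and the B16 arrays belong to the same family, so nothing is read from this count. The runs in P815 and the B16 arrays all lay between 63424282 and 63629115. The LL2 runs were the 95 probes from 61414935 to 62539934 and the 3 probes beyond the shoulder.

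The strain comparison used labels that had no part in the choice of the window. With limma on family means, 3 Balb/C lines were set against 8 C57BI6 families over 220255 autosomal probes, with Benjamini-Hochberg adjustment at 0.05 over all of them, and the p-values measure the spread between lines. In the window 3 of 331 tested probes (0.906%) passed, all lower in Balb/C, against 2.34% of all autosomal probes in either direction and 1.98% lower in Balb/C. None was higher in Balb/C, against 0.36% of all autosomal probes. The share in the window was thus below the background. However, the window was chosen on LL2 and 4T1, a line in each group, and their gains can widen the spread within the groups. Nothing is therefore read from this low share. With LL2 left out 4 of 331 probes (1.21%) passed, against 2.425% of all autosomal probes. In the fit with LL2, no 2 of the 3 probes that passed were neighbours, and 16 of 331 window probes had an unadjusted p under 0.05. The share of all autosomal probes under that limit was not computed, so this number is not read. All 3 Balb/C lines were in the same scan batch of 6 arrays. With the scan batch in the limma fit 2 window probes passed, against 1.1% of all autosomal probes.

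The largest strain difference was a single probe inside the LL2 core, chr15:61783521-61783580. It read -3.97 in CT26, -4.51 in 4T1 and -5.08 in Renca, and in all 3 the red signal was not well above background. It read 4.19 in LL2, -0.09 in P815 and from -0.20 to 0.43 in the other C57BI6 arrays. The Balb/C mean was -4.52 ± 0.56 (SD, n = 3) and that of the C57BI6 families 0.71 ± 1.42 (SD, n = 8), with an adjusted p of 7.1e-06 by limma. As a bound, the Balb/C level was at least 33.1-fold lower, or at least 23.4-fold lower with LL2 left out. This bound sets the line signal at the lowest value that was well above background on the array where that was higher than its own. In 4T1 the 3 probes on each side averaged 1.02 ± 0.24 (SD over 6 probes), so in that line a single low probe lay within a gained stretch.

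The other strain probes that passed lay near the start of the window. At chr15:59128124-59128183 the mean was -0.65 ± 0.34 (SD, n = 3) in Balb/C and 0.06 ± 0.24 (SD, n = 8) in C57BI6, with an adjusted p of 0.032 by limma, and single values overlapped between the groups. At chr15:59319664-59319723 the means were -0.12 ± 0.18 and 0.59 ± 0.15, with an adjusted p of 0.0062 by limma, and the groups did not overlap. P815 read -0.18 at this probe, inside the range of the Balb/C lines.

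The middle probe of the small LL2 gain beyond the shoulder, chr15:62668717-62668776, also read low in Balb/C, at -0.95 in CT26, -0.55 in 4T1 and -1.08 in Renca. The C57BI6 arrays other than LL2 ran from -0.07 to 0.31, and P815 was at -0.29. Its adjusted p was 0.084 by limma with LL2, where the C57BI6 SD was 0.81, and 0.00056 with LL2 left out. The means without LL2 were -0.86 ± 0.28 (SD, n = 3) and 0.11 ± 0.14 (SD, n = 7). The groups overlapped at this probe neither with LL2 nor without it.

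Few window readings were very low. Of 5408 spot readings over all arrays, 8 were outliers by the scanner software and 4 had a line signal not well above background. The same shares over all autosomal spots were not computed, so these counts are not read as a trait of the window. The 4 readings not well above background were the 3 Balb/C readings above and a P815 reading of -5.93 at chr15:61937033-61937092. At that probe LL2 read 3.81 and the other arrays from -0.07 to 1.44.

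The P815 reading lay in a low stretch of 8 neighbouring probes, chr15:61849324-61954041 (105 kb), at each of which P815 was the lowest of the 16 arrays. The stretch was picked out after its values were seen, and no segment was called there. Its limits were set by P815 being the lowest array, so the comparison with the other arrays only describes that choice. The other 7 probes of the stretch ran from -1.46 to -0.46 in P815, with a mean of -0.92 ± 0.12 (SE over 7 probes). This was 0.90 below the other 57 probes of the LL2 core in P815, which averaged -0.02, while in the other 15 arrays the same difference ran from -0.22 to 0.03. Under normexp background correction the P815 difference was -0.11, within the range of the other arrays (-0.25 to 0.01). The P815 mean over the 7 probes was then -0.12 ± 0.026 (SE over 7 probes), so the spread between probes shrank along with the depth. The cause was not tested, so this setting does not decide whether P815 is low there.

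Single probes also differed in level in a way shared by most lines. Over the 10 families without LL2 and 4T1, the highest mean was 1.24 ± 0.38 (SD, n = 10) at chr15:62436055-62436114, followed by 1.11 ± 0.45 at chr15:63574591-63574650 and 1.09 ± 0.38 at chr15:60673942-60674001. Apart from the Balb/C probe at 61783521, the lowest were -0.37 ± 0.26 at chr15:62331792-62331851 and -0.36 ± 0.22 at chr15:63812417-63812476. At the limits of the window, the last probe before it ran from -0.07 to 0.92 over the 16 arrays and the first inside from 0.19 to 1.16, and the last inside ran from -0.04 to 0.98 and the first after it from -0.38 to 0.48.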

How the data were processed

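The 332 window probes, and the lists and intervals described, were chosen with earlier results of these data known. Spot intensity values were deposited by the authors from Agilent Feature Extraction 10.7.3.1, background-subtracted, detrended and scaled between dyes by a linear factor, per the file headers. Both the log10 ratios and the log2 value table that were deposited correspond to the ratio of red to green processed intensity, which settles scale and direction. Positions are on mm8, per the file headers. Deposited 0 or 1 flags mark outliers and signal above background.

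From these, log2 of red over green was taken, outlier and control spots were dropped, repeat spots averaged, and each array centred on its autosomal median, with no loess. Segments came from an exact change-point search (squared error, penalty of 6 noise variances times the natural log of the autosomal probe count, at least 5 probes, single probes limited to 3 noise SDs around the running median of 5). SEs over probes measure noise along the genome, not between cultures, and precision is limited by how few arrays there are. The background used 483 windows of 5 Mb with at least 100 probes. Strain was tested with limma 3.58.1 in R 4.3.3, without P815, with B16 and TRAMPC arrays averaged first. Named positions followed a rule: segments 0.3 or more from the rest of chromosome 15 with their borders, runs of called strain probes, and the 3 highest and 3 lowest probes over the other families. Other positions are said to have been picked after their values were seen; so were the runs of 3 probes, the probe at 62668717 and the low P815 stretch. The search and limma were tested on simulated data with independent random noise. Those data held no shared probe effects or broad gains, so the calls made here do not rest on these tests. Normexp (offset 50) was run on median spot signals, since mean signals were not used here. Sequences are not shown, as no mm8 sequence was used here.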

Additional observations from a re-analysis of the deposited data

Results flagged for a closer look

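Among the 8 C57BI6 families, LL2 stood far from the other families, by its gap over the range, at 3 of 15 quantities checked. These were its core at 4.00, its shoulder at 2.72 and the interval shared with the 4T1 peak at 3.40. Chance marks about 1 in 20 such groups, and the window was chosen with the LL2 gain in view, so these values describe that choice.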

How the results depend on the processing

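Only 4T1 had a window difference of 0.3 or more, and it kept its sign under every alternative. Of 160 differences between window and chromosome, by line and setting, 125 stayed within the interval given by their SE over probes. Mode centring cannot change such a difference, and outlier, dim or saturated spots and the deposited value table hardly could. The 35 that moved all came from normexp, the 10 Mb on each side, means over probes, focal segments left out or shared probe effects. Below the threshold of 0.3, EL4 and Renca turned from -0.25 and -0.15 to 0.13 and 0.10 against the 10 Mb on each side. Normexp background correction gave 9 lines with a focal gain (CT26, LL2, 4T1, B16F10 NCI, B16F10 ATCC, P815, PAN02, TRAMPC2 and ID8) in place of 3, an LL2 core at 4.25, a 4T1 peak at 3.33 and 0 strain probes in the window by limma, with 50 at an unadjusted p under 0.05. The autosomal share at an unadjusted p under 0.05 was not computed, so the 50 are not read. Under normexp only 132 of 220255 autosomal probes (0.06%) passed by limma, so the 0 in the window is not a trait of the window. Of these, 115 were higher in Balb/C and 17 lower, in place of 794 and 4359. The cause of these changes was not tested. Halving the segmentation penalty gave 6 lines with a focal gain, and doubling it or leaving single probes unlimited gave 2, LL2 and 4T1. Doubling it also lowered the 4T1 peak to 1.78, since the peak merged with its first step. The share of all 5 Mb windows with a focal gain was not computed under normexp or these segmentation settings. The number of lines whose window lay 0.3 or more from the rest of the chromosome was 0 against the 10 Mb on each side, 2 by means over probes and 2 without shared probe effects. Leaving out each Balb/C line in turn gave 1 to 3 strain probes (0.302% to 0.906%), the lowest without Renca, against 1.71% to 1.93% of all autosomal probes. Leaving out LL2 gave 4 (1.21%), against 2.425%. The probe at 61783521 passed in every strain alternative except normexp. Mode centring, outlier, dim or saturated spots and the deposited value table changed no count. No paired analysis was possible because each line has a single array and the labels carry no replicate numbers. Gains under 5 probes were not segmented, and borders are known only to the gap between probes.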
